A study of Mus musculus with 19 samples.

Results

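The genes described here are those of the cytosolic ribosomal proteins, the proteins that build the ribosome outside the mitochondria, in mouse gastrocnemius, a fast calf muscle. They were chosen by symbol: names made of Rpl or Rps followed by a digit, the acidic stalk proteins Rplp0, Rplp1 and Rplp2, and Rpsa, with at least 1 RPKM (reads per kilobase and per M mapped reads, with M for mega) in at least 5 libraries. Of 13067 genes in the deposited table, 102 symbols matched the pattern. The 9 Rps6k kinases and 10 symbols containing -ps were left out, and all of the remaining 83 met the RPKM minimum, 82 of them in every library. Of these 83, 75 encode standard ribosomal proteins, 45 of the large and 30 of the small subunit. A further 7 are copies or relatives of them: Rpl3l, Rpl7l1, Rpl22l1, Rpl37rt, Rps27l, Rps3a2 and Rps4l. The remaining symbol, Rps19bp1, belongs to a protein that binds a ribosomal protein and is not one itself. Rpl24 and Rps10 were not analysed here.

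PolyA RNA was sequenced in 19 libraries. There were 5 libraries from C26 mice given rolipram, 7 from C26 mice given vehicle and 7 from control mice without a tumour. C26 is a colon adenocarcinoma line of the mouse that is widely used to model cachexia, in which a tumour-bearing animal loses muscle and fat. Rolipram inhibits some of the phosphodiesterases that break down cyclic AMP. Mice with tumours were Balb/c males that received C26 cells under the skin at 2 months of age followed from day 4 by rolipram (3 mg/kg, into the peritoneum) or by ethanol in saline as vehicle. The labels state neither injections nor the age, sex or strain of the controls, so tumour and vehicle injection cannot be told apart in comparisons with them. Whether the libraries are 1 per animal is not stated either, and the p-values therefore reflect only how these samples vary. The tissue label was met by its markers: Acta1, the actin of skeletal muscle fibres, averaged 22600 RPKM in C26 rolipram, 20365 in C26 vehicle and 24755 in control.

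A ribosome has a small subunit, which reads the messenger RNA, and a large subunit, which joins amino acids, and each standard protein is present at most once or a few times per particle. Messenger RNAs of ribosomal proteins begin with a run of pyrimidines, the 5′ terminal oligopyrimidine (TOP) motif, through which mTOR and the binding protein Larp1 control their translation. Muscle is unusual in making Rpl3l, a paralogue of Rpl3 found in striated muscle and heart, in place of much of its Rpl3. Both proteins occupy the same position near the peptidyl transferase centre of the large subunit.

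The DNA around the annotated start of 6 of these genes is shown because they include several of the larger rises (Rpl10a, Rps27, Rpl22l1), the fall of Rpl3l, and examples of the motifs counted below. Each run covers 80 bases before and 20 bases from the RefSeq start on GRCm38.p6, the assembly also called mm10, 5′ to 3′ on the gene's own strand. Capitals mark the motif named after the coordinates.
Rpl10a, chr17:28328391-28328490, plus strand, none of the searched motifs: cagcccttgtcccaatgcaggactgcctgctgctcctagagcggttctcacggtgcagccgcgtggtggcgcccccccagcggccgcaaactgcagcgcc
Rps27, chr3:90213629-90213728, minus strand, YY1 motif: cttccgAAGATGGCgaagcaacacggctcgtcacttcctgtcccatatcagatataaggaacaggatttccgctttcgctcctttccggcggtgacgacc
Rpl35, chr2:39005112-39005211, minus strand, pyrimidine run: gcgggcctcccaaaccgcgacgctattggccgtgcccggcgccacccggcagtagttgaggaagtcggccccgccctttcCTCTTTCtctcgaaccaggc
Rpl38, chr11:114668500-114668599, plus strand, ETS motif: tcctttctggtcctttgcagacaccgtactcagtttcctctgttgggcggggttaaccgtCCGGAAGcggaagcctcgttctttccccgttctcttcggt
Rpl22l1, chr3:28805428-28805527, plus strand, TATA motif on both strands: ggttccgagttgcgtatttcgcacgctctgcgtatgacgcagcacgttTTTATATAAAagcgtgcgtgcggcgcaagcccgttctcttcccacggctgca
Rpl3l, chr17:24727746-24727845, plus strand, E-box: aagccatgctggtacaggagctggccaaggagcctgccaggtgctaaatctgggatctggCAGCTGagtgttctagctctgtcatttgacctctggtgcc

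The motif counts cover the longer RefSeq windows, 250 bases before to 50 bases after each start, searched on both strands, which gave 73 windows for 61 of the 83 genes. CCGGAAG, a binding sequence of ETS factors, was in 34.2% of these windows, against 8.91% of all 32544 windows of the genome and 17.8% of the windows of all genes tested here. CTCTTTC, a pyrimidine run of the TOP kind, was in 28.8% of the ribosomal protein windows, against 8.19% of all windows and 7.09% of those of genes tested. AAGATGGC, the sequence bound by YY1, was in 11% of them, in 2.77% of all windows and in 4.58% of those of genes tested. Some genes have several windows. Counted by gene, AAGATGGC was in 6 of 61 (9.84%), against 5.59% of genes tested. In the same count CCGGAAG was in 39.3% against 20.8%, and CTCTTTC in 29.5% against 8.48%. Motifs of muscle promoters were rarer than in the genome: the E-box CAGCTG was in 4.11% of the ribosomal protein windows against 16.4% of all and 15.5% of those of genes tested, and the MEF2 consensus sequence was in 0 of 73 against 3.7% of all and 3.28% of those of genes tested. TATAAA was in 9.59% of the ribosomal protein windows, between the 13.6% of all windows and the 7.36% of the windows of genes tested here. Rpl3l was 1 of 3 genes of the set with an E-box, beside Rpl35 and Rpl6. These are matches of letters. In the 6 runs above, the TATA matches of Rpl22l1 on its 2 strands overlap each other.

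The genes lie on many chromosomes, with 14 on chromosome 7, 7 each on chromosomes 9, 11 and 17, and 4 on X. Rpl13a is on chromosome 7 (45125558 to 45128761). Rpl3 is on chromosome 15 (80077791 to 80091868, minus strand) and Rpl3l on chromosome 17 (24727820 to 24736143, plus strand). Coordinates are those of a GENCODE annotation of GRCm38.

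In control muscle the standard genes had a median of 110 RPKM, the median being taken over their control means. Rplp1, a protein of the stalk that recruits elongation factors, was the highest at 597 ± 50.9 RPKM (SD, n = 7). Rpl13a, a large-subunit protein, was the lowest at 2.92 ± 0.522 RPKM, a 205-fold range between proteins that are made in about equal number. Of the 75 standard genes, 43 were above 100 RPKM and 5 below 20: Rpl13a, Rpl26, Rpl29, Rpl35a and Rps15a. RPKM divides reads by a gene length, and the lengths used are not given in the sources used here. In the GENCODE annotation the merged exons of standard genes cover from 383 bases (Rpl36) to 6270 bases (Rps15a). How much of the range in RPKM rests on these lengths was not tested. Many ribosomal protein genes have processed pseudogenes. A median of 38.5% of the 50-base words in a standard gene's coding transcripts also occurred in transcripts of other genes, and 26 of 75 genes shared at least 50%. Those 26 had a median control level of 127 RPKM and the other 49 one of 98.99 RPKM. Levels of such genes are uncertain, because the handling of reads that fit several places is not given in the sources used here. Rpl3l shared 0% of its words and Rpl3 67.1%, with 26 pseudogenes.

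Libraries of a group moved up and down together over these genes. In C26 rolipram, replicate 3 was the lowest of the 5 libraries for all 75 standard genes, and replicate 2 was the highest for 66. In C26 vehicle, replicate 7 was the lowest of 7 libraries for 67 genes and replicate 1 the highest for 60. In control, replicate 1 was highest for 47 genes and replicate 2 lowest for 36. The median SD of log2(RPKM + 1) over the 83 genes was 0.33 in C26 rolipram, 0.19 in C26 vehicle and 0.15 in control. Library sizes recovered from the deposited values ran from 16.6 to 45.5 M reads, and averaged 25.3 ± 8.89 M in the 5 C26 rolipram libraries (SD), 26.6 ± 9.28 M in the 7 of C26 vehicle and 20.04 ± 1.89 M in the 7 controls.

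The share of all listed RPKM that fell on the 83 genes was higher in every tumour library than in any control library. It was 4.65%, 5.67%, 3.47%, 4.23% and 5.55% in the 5 C26 rolipram libraries. In C26 vehicle it ran from 3.46% to 5.02% with a median of 4.16%, and in control from 2.18% to 2.65% with a median of 2.38%. The C26 rolipram and C26 vehicle ranges overlapped. The large subunit held 2.42 ± 0.470% of the listed RPKM in C26 rolipram (SD, n = 5), 2.14 ± 0.303% in C26 vehicle (n = 7) and 1.22 ± 0.0868% in control (n = 7). The small subunit held 2.16 ± 0.443%, 1.90 ± 0.264% and 1.07 ± 0.0786% in the same order of groups. In bulk muscle, fewer cells of a type and less RNA per cell cannot be told apart.

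**Figure D1:**
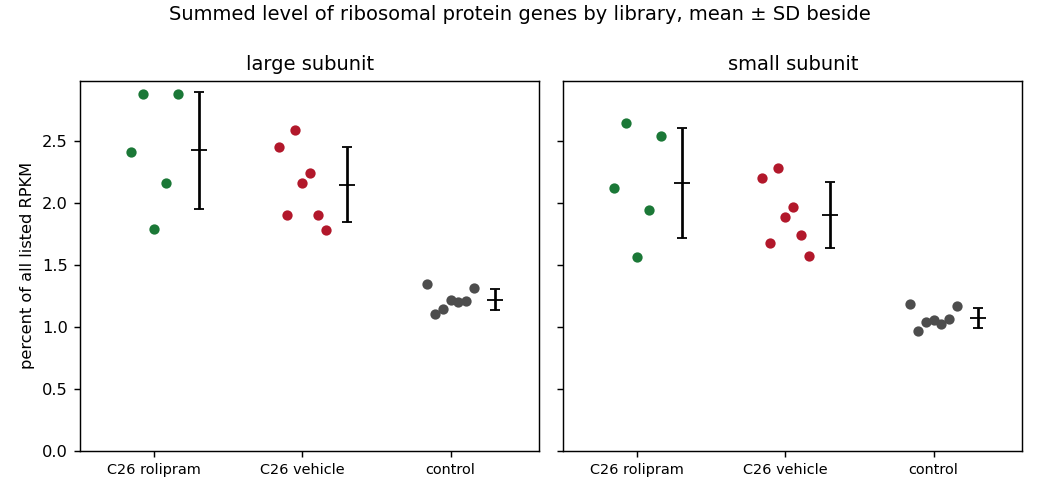
Percent of all listed RPKM carried by standard large subunit (left) and small subunit genes (right) in each library, with C26 rolipram, C26 vehicle and control from left to right; points are libraries, and bars beside them mean ± SD. All control libraries lie below all tumour libraries, and C26 rolipram replicate 3, the lowest of its group at 1.79% (large) and 1.56% (small), is close to the lowest C26 vehicle library.

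Ribosomal protein messages were higher in C26 vehicle than in control muscle almost throughout. Of the 83 genes, 75 (90.4%) were higher and 1, Rpl3l, was lower at an adjusted p below 0.05 (limma, Benjamini-Hochberg over 11141 genes). Among all genes tested, 43.3% were called higher and 23.8% lower. The rise held for 44 of 45 standard large-subunit genes and 29 of 30 of the small subunit. The exceptions were Rpl23a of the large subunit and Rps2 of the small subunit.

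The difference between the group means of log2(RPKM + 1) had a median of 0.63 over the 83 genes and of 0.15 over all genes. The members' median was thus 0.48 above that of all genes. Scaling the libraries by the median of gene ratios moved the median of all genes to 0.00 and that of the 83 to 0.45, with 64 of them called higher and 2 lower, while 33.6% of all genes were called higher. Among genes called in either direction, the higher ones then made up 50.6%, against 64.6% as deposited. Quantile normalisation gave 65 higher and 2 lower and a median of 0.42, with 34.5% of all genes called higher and 51.6% of the called genes being higher ones. The second gene called lower under both scalings was Rpl7l1, at -0.32 and -0.39. For 58 of the 83 genes every C26 vehicle library was above every control library, a separation found in 26.9% of all genes, and Rpl3l alone was separated downwards, against 12.2% of all genes.

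**Figure D2:**
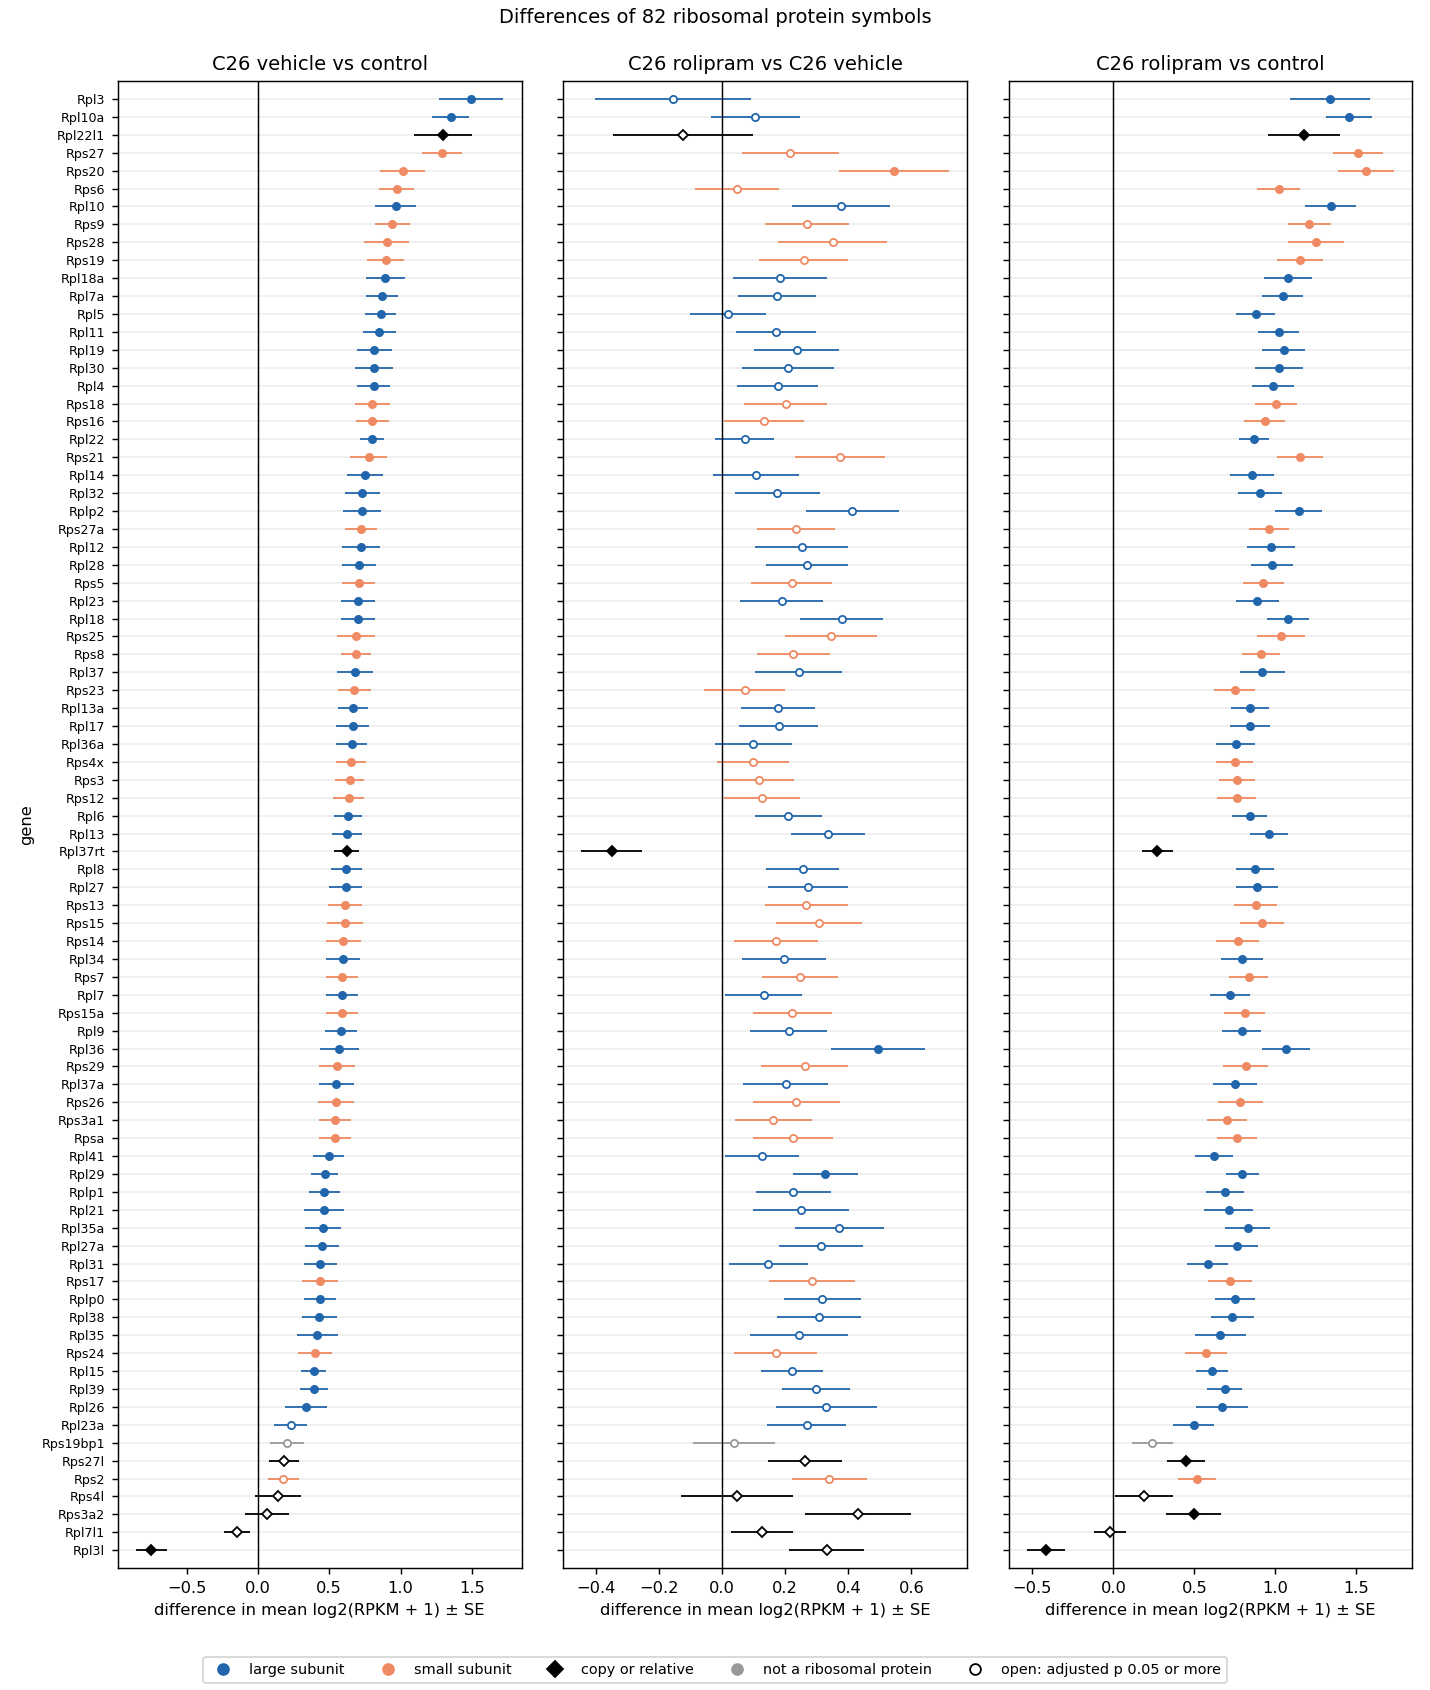
Difference in mean log2(RPKM + 1) ± SE for 82 of the 83 genes, in C26 vehicle against control (left), C26 rolipram against C26 vehicle (middle) and C26 rolipram against control (right), ordered by the left panel; filled symbols passed an adjusted p of 0.05. Nearly all points lie right of 0 in the left and right panels, Rpl3l lies left of 0 in both, and most points in the middle panel are open and within 0 to 0.4.

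Rpl3, whose protein lies next to the peptidyl transferase centre, had the largest rise. C26 vehicle libraries had 43.7 to 116 RPKM of Rpl3 with a median of 58.4, and control libraries 16.5 to 41.0 with a median of 21.5. The highest control library was replicate 7, with the next at 22.9, and all C26 vehicle libraries were above it. The difference was 1.49 ± 0.23 (log2, SE, adjusted p = 8.37e-06).

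Rpl10a, part of the mobile stalk where spent tRNA leaves the large subunit, followed. It had 137 to 247 RPKM in C26 vehicle (median 184), against 65.3 to 81.4 in control (median 74.4), with no overlap and a log2 difference of 1.35 ± 0.13 (SE, adjusted p = 2.12e-08). Rpl10, which is loaded late and completes the tRNA sites of the large subunit, had 338 to 536 RPKM in C26 vehicle (median 424) and 195 to 264 in control (median 210). The groups did not overlap, and the log2 difference was 0.97 ± 0.14 (adjusted p = 6.03e-06). Rpl5 and Rpl11, which bind 5S rRNA and, when free, the p53 regulator Mdm2, were 0.86 ± 0.11 and 0.85 ± 0.12 higher on the log2 scale, both without overlap.

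In the small subunit the largest rise was that of Rps27, a zinc-finger protein. Its RPKM was 508 to 848 in C26 vehicle (median 649) and 225 to 326 in control (median 260), so the groups were apart, and the log2 difference was 1.29 ± 0.14 (adjusted p = 1.35e-07). Rps20, a protein of the head of the subunit, had 58.6 to 104 RPKM in C26 vehicle (median 82.9) and 36.4 to 43.9 in control (median 37.4). It also showed no overlap, at 1.02 ± 0.16 (adjusted p = 1.16e-05). Rps6, the substrate of S6 kinase, rose by 0.97 ± 0.12 and Rps9, whose yeast counterpart helps to keep decoding accurate, by 0.94 ± 0.12, again with no overlapping library. Rps19 and Rps28, whose human counterparts are mutated in Diamond-Blackfan anaemia, rose by 0.90 ± 0.13 and 0.90 ± 0.16.

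The low end of the standard genes held Rps2 and Rpl23a. Rps2, a protein at the entry of the mRNA channel, had 153 to 231 RPKM in C26 vehicle (median 173) and 147 to 172 in control (median 162), overlapping, with a log2 difference of 0.18 ± 0.11 (adjusted p = 0.155). Rpl23a, at the exit of the peptide tunnel, had 137 to 195 RPKM in C26 vehicle (median 143) and 107 to 151 in control (median 127), with a difference of 0.23 ± 0.12 (adjusted p = 0.0845). Both differences were below 0 after quantile normalisation, and that of Rps2 also under median-of-ratios scaling. These 2 genes shared 56.4% and 85.7% of their 50-base words with other genes. For the standard genes with the largest rises the share was 67.1% (Rpl3), 62.6% (Rpl10a), 46.2% (Rps27) and 7.57% (Rps20). Rpl26, next in order, rose by 0.34 ± 0.15 (adjusted p = 0.0471).

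The stalk proteins rose by unequal amounts. The log2 difference was 0.43 ± 0.11 for Rplp0, 0.46 ± 0.11 for Rplp1 and 0.73 ± 0.13 for Rplp2, without overlap in any of them. Rpsa, the laminin-binding protein that also sits in the small subunit, rose by 0.54 ± 0.11, and Rps27a, made as a fusion to ubiquitin, by 0.72 ± 0.11. Rpl13a, the lowest standard gene, rose by 0.66 ± 0.11, with 4.33 to 6.11 RPKM in C26 vehicle (median 5.31) and 2.33 to 3.88 in control (median 2.72). Its difference is on the log2(RPKM + 1) scale, which understates changes at such low levels.

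**Figure D3:**
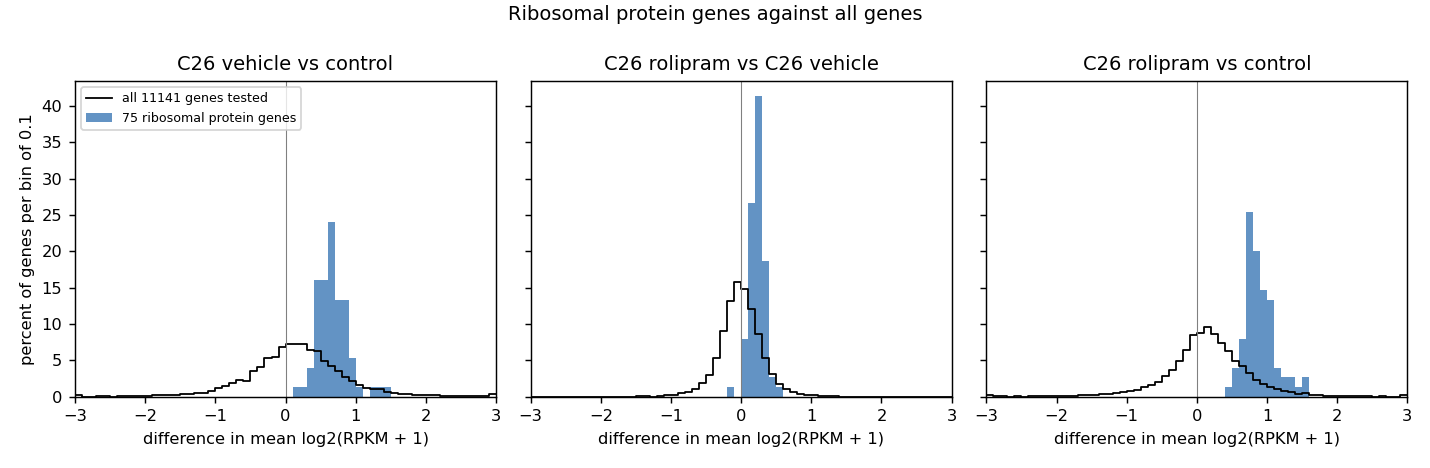
Percent of genes per bin of 0.1 in the difference of mean log2(RPKM + 1), for the 75 standard ribosomal protein genes (bars) and all 11141 genes tested (line), in the 3 comparisons named above the panels; the outermost bins also hold genes beyond 3 in either direction (67 genes on the left, 0 in the middle and 42 on the right). The bars are narrower than the line in each panel and lie right of its centre, with medians of 0.64, 0.23 and 0.86 against 0.15, -0.01 and 0.15 for all genes.

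The medians of the large and the small subunit differed by less than the SD over their genes. That SD describes the spread of the genes and is not an error of the median. In C26 vehicle against control the median log2 difference was 0.63 for standard large-subunit genes and 0.65 for small-subunit genes, and the SD over genes was 0.24 and 0.21. The differences between these medians were -0.02, -0.01 and -0.01 in the comparisons of C26 vehicle with control, C26 rolipram with C26 vehicle and C26 rolipram with control. Every C26 vehicle library was above every control library for 30 of 45 large-subunit and 26 of 30 small-subunit standard genes. These are 66.7% and 86.7%, against 26.9% of all genes. For C26 rolipram against control the shares were 82.2% and 83.3%, against 24.7% of all genes. Within a library, the mean log2(RPKM + 1) of large minus small subunit genes was -0.64 ± 0.03 in C26 rolipram (SD, n = 5), -0.63 ± 0.02 in C26 vehicle (n = 7) and -0.60 ± 0.03 in control (n = 7). No test was made over the genes of a subunit, since they are not replicates of a condition.

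Rpl3l, the muscle paralogue of Rpl3, moved the other way from its relatives. In the C26 rolipram libraries it had 233, 266, 238, 220 and 187 RPKM. It had 138 to 223 RPKM in C26 vehicle (median 191) and 282 to 318 in control (median 306). Every tumour library was below every control library. The log2 difference was -0.75 ± 0.11 for C26 vehicle against control (SE, adjusted p = 4.72e-06) and -0.42 ± 0.12 for C26 rolipram against control (adjusted p = 0.00535). Under both scalings it was further below 0, at -0.93 and -0.95 for C26 vehicle against control.

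Between C26 rolipram and C26 vehicle, Rpl3l differed by 0.33 ± 0.12 on the log2 scale (adjusted p = 0.0576), with overlapping libraries. This call depended on single libraries: the adjusted p ran from 0.0276 to 0.158 when each library was left out in turn, and was below 0.05 without C26 rolipram replicate 5 or C26 vehicle replicate 2, 6 or 7. Rpl3 had 63.9, 88.4, 31.8, 58.3 and 63.8 RPKM in the C26 rolipram libraries. Its difference from C26 vehicle was -0.16 ± 0.25 (adjusted p = 0.693), and from control 1.34 ± 0.25 (adjusted p = 0.000132), where C26 rolipram replicate 3 lay within the control range.

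In control muscle Rpl3l was far above Rpl3 per length of gene, with a median ratio of 14.4 (range 7.22 to 19.3). The ratio was 3.65 (2.92 to 7.50) in C26 rolipram and 2.69 (1.20 to 5.11) in C26 vehicle. On the log2 scale the ratio averaged 1.96 ± 0.55 in C26 rolipram (SD, n = 5), 1.47 ± 0.69 in C26 vehicle (n = 7) and 3.76 ± 0.45 in control (n = 7). C26 vehicle and control libraries did not overlap, and their difference of -2.29 had an exact permutation p of 0.000583, two-sided, the smallest its 3432 assignments allow, or 0.00175 adjusted over the 3 comparisons. C26 rolipram and control differed by -1.79 with 1 overlap, C26 rolipram replicate 3 at 7.50 and control replicate 7 at 7.22 (exact permutation p = 0.00253, adjusted 0.00379). C26 rolipram and C26 vehicle differed by 0.49, within the spread of the libraries (exact permutation p = 0.217). This ratio is unchanged by any factor that scales a whole library, but it was not recomputed after quantile normalisation. The Rpl3 part of it carries the uncertainty from its pseudogenes. The size of the ratio also depends on the gene lengths used, which its differences between groups do not. In the GENCODE annotation the exons cover 1643 bases for Rpl3l and 3175 for Rpl3.

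**Figure D4:**
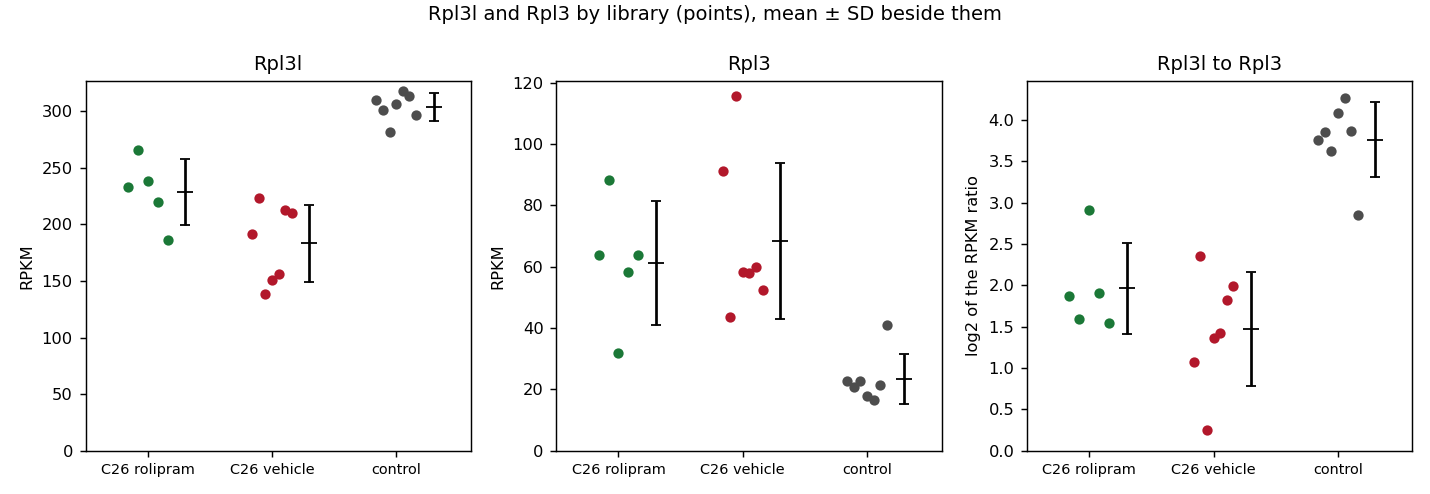
RPKM of Rpl3l (left) and Rpl3 (middle) and log2 of their ratio (right) in each library, with C26 rolipram, C26 vehicle and control from left to right in each panel; points are libraries, and bars beside them mean ± SD. Control libraries are highest for Rpl3l and lowest for Rpl3 except for 1 Rpl3 value of 41.0 in control replicate 7.

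Markers of other cells and of the fibres also differed between the groups. Among all genes tested, 43.3% were called higher and 23.8% lower in C26 vehicle against control. The shares were 38.5% and 16.4% in C26 rolipram against control, and 9.78% and 7.32% in C26 rolipram against C26 vehicle. Of 8 muscle fibre markers, 3 were lower in C26 vehicle than in control and 4 were lower in C26 rolipram than in control, with none higher. Their summed level ran from 35401 to 57425 RPKM in C26 rolipram, from 34857 to 56236 in C26 vehicle and from 54265 to 64474 in control. C26 rolipram replicate 3, the library lowest in ribosomal protein messages of its group, had the highest fibre marker sum of the tumour libraries, and C26 rolipram replicate 5 had the second lowest at 35401. Of 8 macrophage markers tested, 7 were higher in C26 vehicle than in control and 5 in C26 rolipram than in control, and their sum was 53.0 to 153 RPKM in C26 rolipram, 76.7 to 218 in C26 vehicle and 28.0 to 124 in control. All 5 erythroid markers were higher in both tumour groups than in control, with sums of 202 to 551 RPKM in C26 rolipram, 310 to 1012 in C26 vehicle and 90.6 to 246 in control. The sums of the 2 neutrophil markers measured, S100a8 and S100a9, were 4.23 to 84.7 RPKM in C26 rolipram, 4.84 to 18.2 in C26 vehicle and 0.320 to 5.02 in control, and both were called higher in each tumour group than in control. In C26 vehicle, replicate 7, the lowest library for 67 of the 75 standard genes, had the highest macrophage (218), neutrophil (18.2) and erythroid (1012) sums. It also had the highest fibroblast (482), tendon (56.1), endothelial (88.5), adipocyte (785), Schwann (37.9) and satellite cell (18.3) sums of its group. Its lymphocyte and muscle fibre sums were not the highest. Replicate 1, the highest for 60 genes, had the lowest macrophage sum at 76.7. In C26 rolipram, replicate 3 had the lowest macrophage, neutrophil and erythroid sums, at 53.0, 4.23 and 202. Control replicate 7, the control library highest in Rpl3, had the highest macrophage (124), erythroid (246) and lymphocyte (8.37, next 0.757) sums of the controls. Its muscle fibre sum was the lowest of them, at 54265, and its neutrophil sum was not the highest. Of 6 fibroblast markers, 3 were lower and 1 higher in C26 vehicle than in control, and all 4 tendon markers were lower. Of 5 endothelial markers, 1 was higher and 1 lower in C26 vehicle than in control. Of 3 Schwann markers, 1 was higher and 1 lower there, and of 3 adipocyte markers 1 was lower. Of the markers of satellite cells and regenerating fibres only Myod1 and Myog could be tested. Both were higher in C26 rolipram than in C26 vehicle. In that comparison 1 erythroid marker was lower and 1 tendon marker higher. On the reading used for library sizes, a gene with no read still has a value above 0, so such a value does not show detection. Adgre1, Ptprc, Pax7, Myf5, Myh3 and Myh8 were below the RPKM minimum and not tested. Ly6g, Retnlg, Cd3e, Cd3g, Cd79a and Cd79b were not among the listed genes. The part of these cells in the ribosomal protein differences was not tested.

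The other paralogue pairs were compared in the same way, in 15 tests over 5 pairs, with p-values adjusted over the 15. Rps27l, a relative of Rps27 that p53 induces in human cells, did not pass the test in C26 vehicle against control, where its parent rose. It had 127, 171, 102, 138 and 139 RPKM in C26 rolipram, 95.1 to 129 in C26 vehicle (median 109.9) and 85.8 to 119 in control (median 99.8), with a difference of 0.18 ± 0.11 between C26 vehicle and control (adjusted p = 0.133). In C26 rolipram against control the difference was 0.45 ± 0.12 (adjusted p = 0.00296). The log2 ratio of Rps27l to Rps27 differed by -1.11 between C26 vehicle and control (adjusted exact permutation p = 0.00291), and the C26 rolipram mean differed from control by -1.06 (adjusted exact permutation p = 0.00379). Neither tumour group overlapped control in this ratio.

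Rpl7l1, a relative of Rpl7 that acts in assembly of the large subunit, had 13.4, 12.0, 11.9, 11.1 and 14.2 RPKM in C26 rolipram, 8.74 to 12.5 in C26 vehicle (median 11.9) and 11.3 to 16.2 in control (median 11.8). Its own difference between C26 vehicle and control was -0.15 ± 0.09 (adjusted p = 0.154). The log2 ratio of Rpl7l1 to Rpl7 differed by -0.75 between C26 vehicle and control (adjusted exact permutation p = 0.00291) and by -0.74 between C26 rolipram and control (adjusted exact permutation p = 0.00379), without overlap in either.

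Rpl22l1 rose more than Rpl22. It had 180, 234, 125, 162 and 216 RPKM in C26 rolipram, 133 to 342 in C26 vehicle (median 193) and 62.2 to 106 in control (median 75.4), with no tumour library within the control range. The log2 difference of Rpl22l1 between C26 vehicle and control was 1.30 ± 0.20 (adjusted p = 1.19e-05), and that of Rpl22 was 0.80 ± 0.09 (adjusted p = 1.09e-07). Their log2 ratio differed by 0.50 in C26 vehicle against control (adjusted exact permutation p = 0.0400) and by 0.30 in C26 rolipram against control (adjusted exact permutation p = 0.130), with overlap in both. The log2 ratio of Rps4l to Rps4x passed in no comparison. Rps4l, annotated as a transcribed processed pseudogene, lay between 0.711 and 2.68 RPKM in all libraries. The pseudogene Rps3a2 had 4.18, 6.75, 2.44, 3.81 and 4.57 RPKM in C26 rolipram, 1.64 to 4.43 in C26 vehicle and 2.06 to 3.36 in control, and passed only between C26 rolipram and control, at 0.50 ± 0.17 (adjusted p = 0.0167). Rps19bp1 passed in no comparison, with 8.38 to 12.0 RPKM in C26 rolipram, 7.41 to 14.6 in C26 vehicle and 6.71 to 10.1 in control. Between C26 rolipram and C26 vehicle no pair passed, and the log2 ratios differed by 0.05 for Rps27l to Rps27, 0.01 for Rpl7l1 to Rpl7 and -0.20 for Rpl22l1 to Rpl22.

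**Figure D5:**
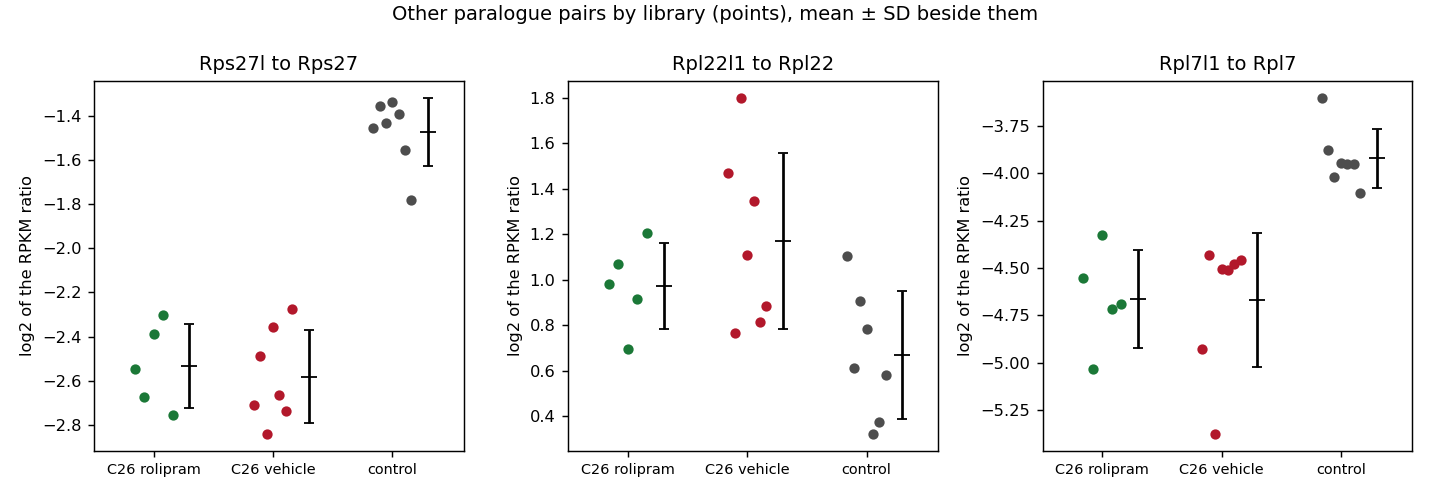
Log2 of the RPKM ratio of Rps27l to Rps27 (left), Rpl22l1 to Rpl22 (middle) and Rpl7l1 to Rpl7 (right) in each library, with C26 rolipram, C26 vehicle and control from left to right in each panel; points are libraries, and bars beside them mean ± SD. Control libraries lie above all tumour libraries in the left and right panels, and the groups overlap in the middle panel.

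Between rolipram and vehicle most ribosomal protein genes had a small positive difference, and few of them passed the test. Of the 83 genes, 3 were higher and 1 lower in C26 rolipram than in C26 vehicle, against 9.78% and 7.32% of all genes. The log2 difference was above 0 for 80 of the 83, a sign found in 48.8% of all genes, with a median of 0.22 against -0.01 for all genes. After quantile normalisation it was above 0 for 73, with a median of 0.12. An unadjusted p below 0.05 with a higher level was met by 23 of 83, against 17.3% of all genes. No member's libraries were separated between these groups, upwards (2.27% of all genes) or downwards (1.8%). The libraries of a group move together in these genes, so the shared sign does not count 80 separate observations.

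Rps20 was the highest of the 3. It had 121, 171, 68.5, 104 and 147 RPKM in C26 rolipram, against 58.6 to 104 in C26 vehicle (median 82.9), with overlap, and the log2 difference was 0.54 ± 0.17 (adjusted p = 0.0353). Rpl36, a small protein of the large subunit, had 489, 656, 332, 426 and 591 RPKM in C26 rolipram and 285 to 426 in C26 vehicle (median 346), with a difference of 0.49 ± 0.15 (adjusted p = 0.0264). Rpl29, named here after its values were seen, had 20.5, 22.5, 17.3, 19.03 and 23.3 RPKM in C26 rolipram and 13.2 to 19.5 in C26 vehicle (median 16.3), with a difference of 0.33 ± 0.10 (adjusted p = 0.0346). The gene called lower was Rpl37rt, annotated as a processed pseudogene of Rpl37, at 1.90, 1.99, 1.52, 2.10 and 2.56 RPKM in C26 rolipram and 2.32 to 3.30 in C26 vehicle (median 2.74), a difference of -0.35 ± 0.10 (adjusted p = 0.0170). Rpl37 itself differed by 0.24 ± 0.14 (adjusted p = 0.231).

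How many genes passed rested on single libraries. Without C26 rolipram replicate 3, 39 of the 83 were higher in C26 rolipram than in C26 vehicle, where 13% of all genes were called higher in the same fit. Among the 39 were Rplp2 at 0.55, Rpl10 at 0.53, Rps28 at 0.53 and Rpl18 at 0.51. Without C26 rolipram replicate 1 or replicate 2 the count was 0, against 5.94% and 6.06% of all genes. It was 1 without C26 rolipram replicate 5 or C26 vehicle replicate 4, against 8.14% and 8.06% of all genes. Without C26 vehicle replicate 1 it was 7, against 9.18% of all genes. When only these 2 groups were fitted it was 0, against 4.2% of all genes in that fit. With all libraries, the larger differences that did not pass included Rplp2 at 0.41 ± 0.15, Rpl18 at 0.38 ± 0.13, Rpl10 at 0.38 ± 0.16 and Rps21 at 0.37 ± 0.14, with adjusted p from 0.0511 for Rpl18 to 0.0984 for Rpl10. At the other end, Rps6 differed by 0.05 ± 0.13, Rpl5 by 0.02 ± 0.12 and Rps23 by 0.07 ± 0.13, and each of these changed sign under at least 1 other setting.

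Nearly all ribosomal protein messages were also higher in C26 rolipram than in control muscle. Of the 83 genes, 79 were higher and 1, Rpl3l, lower in C26 rolipram than in control, against 38.5% and 16.4% of all genes, and all 75 standard genes were among the 79. The median log2 difference was 0.84 over the 83, 0.86 over large-subunit and 0.87 over small-subunit standard genes, and 0.15 over all genes. Median-of-ratios scaling gave 76 higher and 1 lower, a median of 0.65, and 26% of all genes called higher. Higher genes then made up 49.4% of the genes called in either direction, against 70.1% as deposited. For 63 genes every C26 rolipram library was above every control library, against 24.7% of all genes, and Rpl3l was separated downwards, against 10.7%.

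The largest rises over control were those of Rps20 and Rps27 of the small subunit. Rps20 was 1.56 ± 0.17 higher on the log2 scale (adjusted p = 3.94e-07), with its lowest C26 rolipram library at 68.5 RPKM and its highest control library at 43.9. Rps27 had 741, 1090, 536, 682 and 935 RPKM in C26 rolipram and at most 326 in control, a difference of 1.51 ± 0.15 (adjusted p = 1.42e-07). Rps28 was 1.25 ± 0.17 and Rps9 1.21 ± 0.13 higher. In the large subunit Rpl10a was 1.46 ± 0.14, Rpl10 1.34 ± 0.16, Rpl3 1.34 ± 0.25 and Rpl22l1 1.18 ± 0.22 higher. The smallest difference of a standard gene was that of Rpl23a, at 0.50 ± 0.13 (adjusted p = 0.00235), and Rps2 was 0.52 ± 0.12 higher (adjusted p = 0.00106). The comparisons of C26 rolipram and of C26 vehicle with control share the control libraries.

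Ribosomal proteins whose symbols do not begin with Rp include Fau, made as a fusion of a ubiquitin-like protein with a small-subunit protein, and Rack1, a scaffold on the small subunit. Fau had 143.7 to 272 RPKM in C26 rolipram, 129 to 201 in C26 vehicle and 73.5 to 113 in control, and Rack1 had 305 to 484, 291 to 413 and 184 to 219 in the same order. Both were called higher in each tumour group than in control, with log2 differences between C26 vehicle and control of 0.91 ± 0.14 for Fau and 0.78 ± 0.10 for Rack1.

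All 14 other genes with TOP messages were higher in C26 vehicle than in control and in C26 rolipram than in control, and none passed between C26 rolipram and C26 vehicle. These genes encode elongation and initiation factors and related proteins. Their median log2 difference was 1.05 in C26 vehicle relative to control, 0.08 in C26 rolipram relative to C26 vehicle and 0.79 in C26 rolipram relative to control. The range in C26 vehicle against control ran from 0.25 for Eef1g, a subunit of elongation factor eEF1B, to 1.77 for Nap1l1, a histone chaperone. Eif4b, a helper of the mRNA-unwinding helicase, rose by 1.26, and Eef2, the translocation factor, by 1.15.

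Of 13 regulators of ribosomal protein synthesis tested, 10 were higher in C26 vehicle than in control and none lower. The largest rise was that of Eif4ebp1, a repressor of cap-dependent translation that mTOR inactivates, with 208 to 348 RPKM in C26 rolipram, 159 to 412 in C26 vehicle and 13.8 to 22.7 in control, and a log2 difference of 3.98 for C26 vehicle against control (adjusted p = 2.67e-13). Myc, an activator of ribosome synthesis, rose by 1.28, Rheb, the activator of mTOR, by 1.13, Larp1 by 1.12 and Mtor by 1.08. Rptor, Rps6kb2 and Gabpa did not pass. Between C26 rolipram and C26 vehicle, 2 of the 13 were lower and none higher, where 7.32% of all genes were called lower. Larp1 had 29.7 to 38.4 RPKM in C26 rolipram and 35.2 to 57.4 in C26 vehicle, a difference of -0.41 (adjusted p = 0.0149), and Tsc1, part of the complex that holds Rheb back, had 6.76 to 12.1 RPKM in C26 rolipram and 8.81 to 26.8 in C26 vehicle, a difference of -0.64 (adjusted p = 0.0307). Both overlapped between the groups.

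Dedicated chaperones and importers carry new ribosomal proteins to the nucleus. Of 10 tested, 8 were higher and 1 lower in C26 vehicle than in control, among them the importins Ipo7 (1.16) and Ipo5 (1.01). The gene called lower was Pdcd2l, a relative of the Rps2 chaperone Pdcd2, at -0.19 (adjusted p = 0.0475), while Pdcd2 rose by 0.73. All 10 genes of ribosome quality control and turnover were higher in C26 vehicle than in control, such as Nufip1 (1.03), a receptor for the autophagy of ribosomes, G3bp1 (1.00) and Zfp598 (0.98), the sensor of collided ribosomes. In C26 rolipram against control the counts were 7 of 10 and 9 of 10 higher, none lower, and in C26 rolipram against C26 vehicle none of either list passed. All counts of these lists are to be read against the 43.3% (C26 vehicle against control), 9.78% (C26 rolipram against C26 vehicle) and 38.5% (C26 rolipram against control) of all genes called higher. The shares of all genes called lower were 23.8%, 7.32% and 16.4% in the same order.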

How the data were processed

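PolyA RNA was sequenced from stranded libraries of gastrocnemius. Alignment used STAR 2.5.3a and counting featureCounts 1.6.4, with mm10 as the genome build, per the submitters' processing notes. The deposited table holds RPKM values made by the authors for 13067 genes in 19 libraries. The annotation release, strand setting, RPKM tool and treatment of multi-mapping reads are not given in the sources used here. Library sizes were recovered from the spacing of low values, taking a prior of 0.25 read. They are estimates, and they set the counting precision only indirectly.

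Genes with at least 1 RPKM in at least 5 libraries were kept (11141). Values were analysed as log2(RPKM + 1). One linear model of the 3 groups over all 19 libraries was fitted in limma 3.58.1 (R 4.3.3) with trended, robust moderation, two-sided, with Benjamini-Hochberg adjustment over all kept genes and a threshold of 0.05. SE is the moderated standard error of a difference. Scripts were tested on simulated data. Paralogue ratios were compared by exact permutation tests over libraries, without a pseudocount. Named genes were the paralogues with their parents, the 4 highest and 4 lowest differences per subunit and comparison, members fixed by role, and extremes of fixed lists, not all of which are printed. A few single genes are not reported here. The members and lists were chosen with earlier results of these data known. Alternatives were a pseudocount of 0.1, no filter, median-of-ratios scaling, quantile normalisation, a replicate block, a fit of only the 2 groups compared, moderation without trend and robustness, and leaving out each library. Promoter sequences and motif windows are from RefSeq on GRCm38.p6, and 61 of 83 symbols matched.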

Additional observations from a re-analysis of the deposited data

Results flagged for a closer look

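In 37 series of values, each looked at in 3 groups, 8 group values had 1 library set apart from the rest by a gap that Dixon's criterion marks, which chance does in about 1 in 20 groups. Rpl3 was 41.0 RPKM in control replicate 7, with the next control library at 22.9. Rpl7l1 was 8.74 RPKM in C26 vehicle replicate 3, the next lowest being 11.04, and 16.2 RPKM in control replicate 1, the next highest being 13.4. In C26 vehicle replicate 1, Rplp1 was 1004 RPKM with the next library at 815, Rpl23a was 195 RPKM with the next at 157, and Rps19bp1 was 14.6 RPKM with the next at 10.2. The log2 ratio of Rpl3l to Rpl3 was 2.91 in C26 rolipram replicate 3, and the next in that group was 1.91. The log2 ratio of Rps4l to Rps4x was -9.05 in C26 rolipram replicate 5, and the next was -7.69.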

How the results depend on the processing

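The counts of genes called against control were stable to leaving out any library: 74 to 76 higher in C26 vehicle and 78 to 79 in C26 rolipram, with 1 lower each time. The medians of the subunits ran over these settings from 0.59 to 0.67 (large) and 0.60 to 0.68 (small) in C26 vehicle against control, and from 0.13 to 0.32 and 0.13 to 0.35 in C26 rolipram against C26 vehicle. Quantile normalisation gave 2 lower for C26 rolipram against control, subunit medians of 0.54 (large) and 0.54 (small) there, and 0.40 (large) in C26 vehicle relative to control. It gave 5 higher in C26 rolipram against C26 vehicle, where 10.6% of all genes were called higher. Both scalings gave 2 lower in C26 vehicle relative to control. Between C26 rolipram and C26 vehicle, leaving out 1 library gave 0 to 39 higher, with 5.94% to 13% of all genes called higher in these fits. A fit of only the 2 groups gave 0 higher and 0 lower. For Rpl3l in C26 rolipram against C26 vehicle, leaving out 1 library gave 0.27 to 0.40; for Rpl3 it gave -0.31 to 0.057. The causes were not tested.

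The labels number the replicates without stating a pairing. Correlations of same-numbered deviations ran from -0.04 to 0.30, from -0.36 to 0.39 and from -0.10 to 0.03 in the 3 comparisons. C26 vehicle replicates 4, 5 and 7 correlated best with the control library of their own number, and no library did so in the other comparisons. Whether the numbers pair libraries is therefore not settled. With the replicate block, Rpl3l in C26 rolipram against C26 vehicle was 0.38 (adjusted p = 0.0323), and the Rpl3l to Rpl3 log2 ratio of C26 rolipram against control, over 5 pairs, was -1.95 (adjusted exact permutation p = 0.0938). The smallest unadjusted p that 5 pairs allow is 0.0625, so this test could not pass, and it does not count as a lost call.

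Of 84 single-gene results, 34 changed call or sign under some setting. Signs turned in C26 vehicle against control for Rps27l (-0.00090 median-of-ratios, -0.10 quantile), Rps3a2 (-0.072, -0.022, and -0.018 without C26 vehicle replicate 3), Rps2 (-0.0081, -0.074), Rps19bp1 (-0.020 quantile) and Rpl23a (-0.032 quantile). They turned in C26 rolipram against C26 vehicle for Rps6 (-0.072 quantile, -0.0047 replicate block), Rpl5 (-0.046, -0.016), Rps4x (-0.013 quantile) and Rps23 (-0.047 quantile). Without C26 rolipram replicate 2, Rps6 was -0.032, Rpl5 -0.081, Rps23 -0.021 and Rps4l -0.048. Without replicate 1 Rps19bp1 was -0.0079, without replicate 3 Rpl22l1 was 0.0038 and Rpl3 0.057, and Rpl7l1 against control was 0.020 without replicate 4. None of these values passed.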
